A study of Mus musculus with 3 samples.

Results

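The 10 genes described here, Gpnmb, Apoe, Trem2, Lpl, Spp1, Fabp5, Cd9, Mmp12, Lgals3 and Plin2, are the ones usually named as the signature of lipid-associated macrophages. They are 10 of the 19059 genes probed in these libraries, and each was found by its symbol in the deposited matrices. The set was selected on the measured KO levels of Gpnmb, Mmp12 and Apoe in macrophages, so the differences between libraries in that cell type are a description and support nothing by themselves.

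Lipid-associated macrophages take up lipid from dying cells, lipoproteins or myelin and store or export it. The receptor Trem2 binds lipids and lipoproteins and signals through the adaptor Tyrobp, and the programme is known from obese fat, fatty liver, atherosclerotic plaques and diseased brain. In the liver, the resident macrophages are Kupffer cells, and cells of this programme appear beside them in steatosis and can arise from monocytes.

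Gene expression was measured by capture with gene-specific probes in single fixed cells, sorted alive for CD45, a protein on the surface of leukocytes, from livers of mice at postnatal day 0. The 3 groups were pups null for Pex2 (Pex2-/-, here KO), heterozygous pups (Pex2Het) and wild-type pups (WT), with 1 library each. Pex2 encodes a membrane protein that peroxisomes need to import their enzymes, and its loss models severe Zellweger disease. The sources used here do not say how the null allele was made or how many animals went into a library. A genotype is represented by a single library, so no test could be made and every difference below is one between libraries without a replicate check.

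The upstream windows of 4 genes are printed to show the promoter sequence of the 3 genes for which the set was chosen, and of Trem2, the receptor that names the programme. Each is the 250 bases before a transcription start in RefSeq on GRCm38.p6, read 5′ to 3′ on the strand of the gene, and none overlaps an annotated exon. Capitals mark a match to CATGTG, an E-box variant bound by the MITF and TFE factors, or to TGANTCA, the form bound by AP-1, on either strand. Gpnmb lies at chr6:49036268-49036517 (plus strand), the second Mmp12 start at chr9:7347124-7347373 (plus strand), the first Apoe start at chr7:19699189-19699438 (minus strand) and Trem2 at chr17:48346151-48346400 (plus strand).
Gpnmb: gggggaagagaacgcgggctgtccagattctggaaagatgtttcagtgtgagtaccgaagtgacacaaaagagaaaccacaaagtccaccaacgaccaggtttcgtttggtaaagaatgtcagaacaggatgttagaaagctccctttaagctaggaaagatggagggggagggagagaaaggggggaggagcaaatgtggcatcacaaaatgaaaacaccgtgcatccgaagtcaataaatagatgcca
Mmp12: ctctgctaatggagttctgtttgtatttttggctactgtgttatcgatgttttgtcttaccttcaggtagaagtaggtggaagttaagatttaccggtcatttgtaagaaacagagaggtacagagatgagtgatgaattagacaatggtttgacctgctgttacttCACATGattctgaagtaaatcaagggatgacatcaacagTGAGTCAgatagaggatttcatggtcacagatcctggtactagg
Apoe: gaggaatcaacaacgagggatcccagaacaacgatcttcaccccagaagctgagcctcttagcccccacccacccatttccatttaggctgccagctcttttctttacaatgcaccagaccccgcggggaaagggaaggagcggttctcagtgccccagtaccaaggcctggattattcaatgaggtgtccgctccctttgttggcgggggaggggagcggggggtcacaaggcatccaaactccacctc
Trem2: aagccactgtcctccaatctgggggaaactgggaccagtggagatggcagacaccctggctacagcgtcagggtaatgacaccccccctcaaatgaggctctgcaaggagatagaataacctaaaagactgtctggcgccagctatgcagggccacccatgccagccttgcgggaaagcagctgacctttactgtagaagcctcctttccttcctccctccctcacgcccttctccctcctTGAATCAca
The printed Mmp12 window holds CACATG, the reverse complement of CATGTG, 83 bases before the second start, and TGAGTCA 44 bases before it. This window lies inside the annotated gene. The window of the first Mmp12 start (chr9:7344147-7344396), at the annotated gene start, overlaps an exon, was not printed and holds neither motif. Trem2 has TGAATCA 9 bases before its start, and the Gpnmb and Apoe windows hold neither motif. Of all 32851 promoters of this length, 12.3% hold CATGTG, 6.75% hold TGANTCA and 6.02% hold CACGTG, the core E-box. The table held 12 promoters of 8 members, all but Lpl and Fabp5. CATGTG was found in those of 2 members (Cd9 and Mmp12), TGANTCA in those of 2 (Mmp12 and Trem2) and CACGTG in those of 0. A match here is a description of the letters and not a binding site.

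Pex2, on chromosome 3, had 2 UMIs (tags that count single captured molecules) in the KO library, 7704 in the library labelled Het and 2283 in the library labelled WT. Scaled to 1000000 UMIs of the library (CPM), the level was 0.0107 CPM in KO, 53.3 CPM in labelled Het and 23.6 CPM in labelled WT. The KO label fits this gene, but the other libraries stand in the opposite order to their labels, so they are called the library labelled Het and the library labelled WT throughout. The libraries held 8000 to 9600 barcodes and 96629431 to 186295183 UMIs, and the median depth per cell was 19348 UMIs in KO, 15558.5 in labelled Het and 8218.5 in labelled WT. No whole barcode was shared between libraries, and 961 to 1184 barcodes shared their first bases, the part that marks a droplet. After calling doublets, 7947, 7814 and 9327 cells were kept in KO, labelled Het and labelled WT.

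Cells were assigned to 12 classes by the summed UMIs of marker genes per 10000 UMIs of the cell, and none of the 10 members was among the markers. A cell went to the class whose threshold it exceeded most, so a gate is a range of a score, and 45 KO, 38 labelled Het and 37 labelled WT macrophages lay within 2-fold of their threshold. Macrophage-gated cells, set by 15 genes such as C1qa, Csf1r, Vsig4 and Clec4f, numbered 117 in KO, 69 in labelled Het and 73 in labelled WT. They made up 1.47% of KO cells (1.22 to 1.76), 0.883% of labelled Het cells (0.688 to 1.12) and 0.783% of labelled WT cells (0.614 to 0.983), with exact Clopper-Pearson 95% intervals. All intervals here cover counting error only. The share in KO was 1.67 times that of labelled Het (1.23 to 2.28) and 1.88 times that of labelled WT (1.39 to 2.56). All 15 markers reached 10 CPM in each library's gate, and C1qa, C1qb, C1qc, Clec4f, Fcna, Marco and Vcam1 were among the 10 leading genes in each of them. In a clustering of all cells, 89.7% of the KO, 92.8% of the labelled Het and 91.8% of the labelled WT macrophages lay in cluster 23. Monocyte clusters held some of the rest, with 11 KO cells (9.40%) in cluster 10, and 3 labelled Het and 6 labelled WT cells in cluster 18. The KO macrophages were deeper, with a median of 12700 UMIs per cell in KO, 7314 in labelled Het and 6817 in labelled WT.

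In these libraries the members did not all lie in the same direction in KO macrophages. Gpnmb and Mmp12 were far higher in the KO library, Apoe and Lgals3 were moderately higher, Fabp5 and Trem2 stood between or near the other libraries, and Lpl, Cd9 and Plin2 were lower. Of the 10 members, 9 passed a filter of a mean of at least 10 CPM over the 3 gate sums, and Spp1 did not. Among all 8551 genes that passed, 4.06% were at least 2-fold higher in KO than in both other libraries and 4.47% at least 2-fold lower, against 2 and 3 of the 9 members. The choice of the members used this contrast, so nothing is read from those counts. The median log2 ratio of the 9 members was -0.14 for KO over labelled Het and 0.60 for KO over labelled WT, where the medians of all 8551 genes were 0.09 and 0.05.

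**Figure D1:**
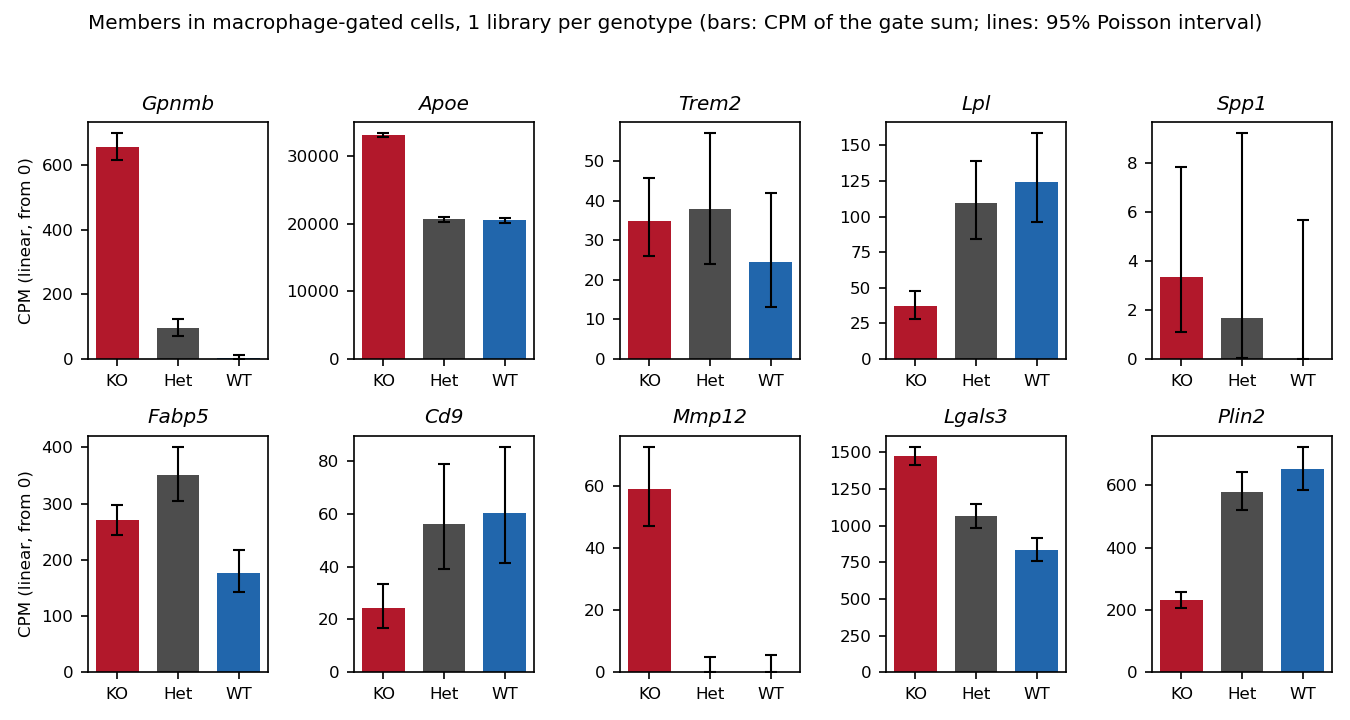
Level of each member (CPM of the summed UMIs, linear axis from 0, a scale of its own in each panel) in macrophage-gated cells of the KO library, the library labelled Het and the library labelled WT. Lines are exact Poisson 95% intervals, or reach the level of 3 counts where no UMI was found. Gpnmb stands at 656, 94.3 and 3.77 CPM and Plin2 at 231, 579 and 651 CPM.

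Among the surface proteins, Gpnmb, a glycoprotein of lysosome-rich macrophages (ENSMUSG00000029816, chr6:49036546-49070929, GRCm38), had 978 UMIs in the KO gate, 57 in the labelled Het gate and 2 in the labelled WT gate. Its level was 656 CPM (616 to 699) in KO, 94.3 CPM (71.4 to 122) in labelled Het and 3.77 CPM (0.457 to 13.6) in labelled WT. The KO library was thus highest, and labelled Het lay well above labelled WT. The ratio of KO over labelled Het was 6.96 (5.33 to 9.26) and that of KO over labelled WT was 174 (48.0 to 1438). One cell carried most of the labelled Het value, with 45 of its 57 Gpnmb UMIs (78.9%), while the richest KO cell held 12.2% of the KO UMIs. Leaving out the richest cell of each library gave 576 CPM in KO, 19.9 CPM in labelled Het and 0 in labelled WT.

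Gpnmb was also spread over many KO cells. It was found in 66 of 117 KO cells, 6 of 69 labelled Het cells and 1 of 73 labelled WT cells, and 33 KO cells, 1 labelled Het cell and 0 labelled WT cells had 10 or more of its UMIs. With each cell thinned to 3000 UMIs, it was seen in 48 of 103 KO cells (46.6%, 36.7 to 56.7), 1 of 45 labelled Het cells (2.22%) and 1 of 55 labelled WT cells (1.82%). Cells of the B lineage, which should lack it, gave 0.131% in KO and 0% in both other libraries after the same thinning, with median depths of 5652 UMIs in KO, 7242.5 in labelled Het and 4023 in labelled WT. Unlike Gpnmb, the other surface members were not higher in KO.

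Trem2, the lipid-sensing receptor (chr17:48346401-48354147), had 52 UMIs in KO, 23 in labelled Het and 13 in labelled WT, or 34.9, 38.0 and 24.5 CPM in that order. The ratios of 0.917 over labelled Het (0.551 to 1.57) and 1.42 over labelled WT (0.764 to 2.85) have intervals that span 1, so a difference was not detectable at this depth. Cd9, a tetraspanin (chr6:125460266-125494791), had 24.2 CPM in KO, 56.2 CPM in labelled Het and 60.4 CPM in labelled WT. It was lower in KO at 0.430 times labelled Het (0.261 to 0.708) and 0.400 times labelled WT (0.242 to 0.665), and the 2 other libraries differed by less than their counting error.

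Of the secreted members, Apoe, the apolipoprotein that carries exported lipid (ENSMUSG00000002985, chr7:19696109-19699188), was found in nearly every macrophage of each library. It reached 33127 CPM (32836 to 33421) in KO, 20690 CPM (20329 to 21056) in labelled Het and 20543 CPM (20159 to 20933) in labelled WT. The KO library stood above both others, which differed by a ratio of 1.01 (0.982 to 1.03) for labelled Het over labelled WT. KO was 1.60 times labelled Het (1.57 to 1.63) and 1.61 times labelled WT (1.58 to 1.65). Both gaps narrowed when each cell had the same weight, and KO stayed highest. With cells thinned to 3000 UMIs, Apoe was at 32498 CPM in KO, 24030 CPM in labelled Het and 21709 CPM in labelled WT. The mean of each cell's CPM was 31298 in KO, 22013 in labelled Het and 21665 in labelled WT. The median over cells was 28777 CPM in KO, 19858 CPM in labelled Het and 17124 CPM in labelled WT.

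Lgals3, which encodes the glycan-binding galectin-3 (chr14:47367751-47386160), had 1474 CPM in KO, 1064 CPM in labelled Het and 834 CPM in labelled WT. It followed Apoe in direction, at 1.39 times labelled Het (1.27 to 1.52) and 1.77 times labelled WT (1.60 to 1.96). Labelled Het over labelled WT was 1.28 (1.13 to 1.44), so the gap between KO and labelled Het is not much wider than the one between the other libraries.

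Mmp12, the macrophage elastase (ENSMUSG00000049723, chr9:7344381-7369499), had 88 UMIs in the KO gate, or 59.1 CPM (47.4 to 72.8), and 0 UMIs in both other gates. Against a floor of 3 counts per library, KO was at least 11.9-fold higher than labelled Het and at least 10.4-fold higher than labelled WT. Only 9 KO cells carried it, 7 of them with Gpnmb as well. The richest of them had 43 Mmp12, 87 Gpnmb and 1296 Apoe UMIs out of 20199, and the next had 27 Mmp12, 26 Gpnmb and 1182 Apoe UMIs out of 19019. Those 2 cells hold most of the signal: without the richest cell the KO level was 30.2 CPM, and with a macrophage threshold set 2 times as high it was 7.53 CPM and no longer passed the filter.

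Lpl, the lipoprotein lipase that releases fatty acids from lipoproteins (chr8:68880491-68907448), went the other way. It had 36.9 CPM (27.8 to 48.0) in KO, 109 CPM (84.4 to 139) in labelled Het and 125 CPM (96.3 to 158) in labelled WT. KO stood at 0.338 times labelled Het (0.232 to 0.491) and 0.296 times labelled WT (0.203 to 0.430). Among thinned cells it was seen in 5.83% in KO, 24.4% in labelled Het and 36.4% in labelled WT. Spp1, which encodes osteopontin (chr5:104435118-104441050), was almost absent from the gate, with 5 UMIs in KO, all in 1 cell, 1 in labelled Het and 0 in labelled WT.

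By the gate sums, and unlike Gpnmb and Apoe, neither gene of an intracellular lipid protein was highest in KO. Plin2, the coat protein of lipid droplets (ENSMUSG00000028494, chr4:86648386-86670060), had 231 CPM (207 to 257) in KO, 579 CPM (520 to 643) in labelled Het and 651 CPM (584 to 724) in labelled WT. KO was the lowest, at 0.399 times labelled Het (0.343 to 0.464) and 0.355 times labelled WT (0.304 to 0.413), and thinned cells with a Plin2 UMI made up 37.9% in KO, 80.0% in labelled Het and 74.5% in labelled WT. Fabp5, a fatty acid-binding protein (chr3:10012548-10016607), had 270 CPM in KO, 351 CPM in labelled Het and 177 CPM in labelled WT, so KO lay between the others. A single labelled Het cell, the one rich in Gpnmb, held 85 of the 212 Fabp5 UMIs there, and without the richest cell of each library the levels were 239 CPM in KO, 210 CPM in labelled Het and 155 CPM in labelled WT.

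**Figure D2:**
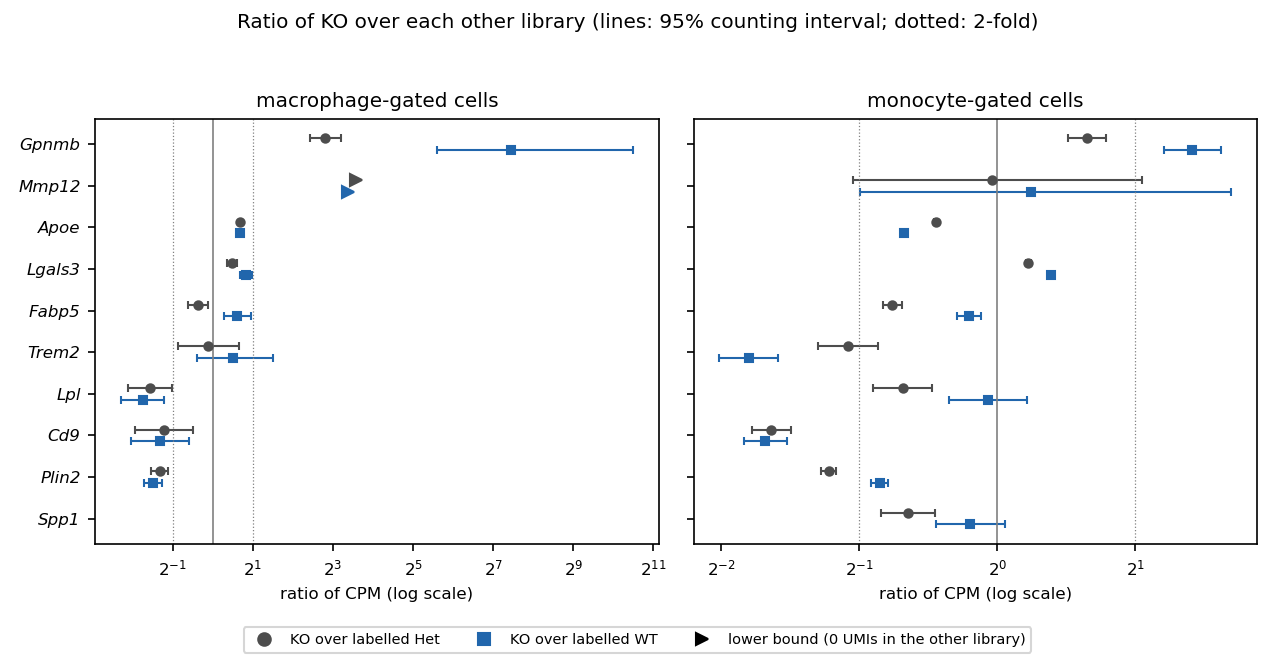
Ratio of the KO library over the library labelled Het (circles) and over the library labelled WT (squares) for each member, on a log scale with base 2, in macrophage-gated cells (left) and monocyte-gated cells (right). Lines are exact 95% counting intervals, triangles are lower bounds where the other library had 0 UMIs, dotted lines mark 2-fold, and Spp1 in macrophages is not drawn. Apoe lies right of 1 in macrophages (1.60 and 1.61) and left of it in monocytes (0.735 and 0.625).

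Values of other cell types moved in these gates too. The summed level of the 15 neutrophil-lineage markers was 8040 CPM in the KO macrophage gate, 14226 CPM in labelled Het and 18943 CPM in labelled WT, with 9, 14 and 14 of them at 10 CPM or more. The 10 hepatocyte markers, for a cell type that also makes Apoe, summed to 2574 CPM in KO, 3518 CPM in labelled Het and 2833 CPM in labelled WT, with 6, 3 and 6 of them at 10 CPM or more. Most of that sum came from listed genes other than Alb and Apoa1. Alb was at 67.1 CPM in KO, 103 CPM in labelled Het and 71.7 CPM in labelled WT. Apoa1 was highest in KO, at 13.4 CPM in KO, 8.27 CPM in labelled Het and 3.77 CPM in labelled WT. Mesenchymal markers were at 0 in KO and labelled WT and at 4.96 CPM in labelled Het. The 9 conventional dendritic markers were highest in KO, at 509 CPM in KO, 260 CPM in labelled Het and 94.4 CPM in labelled WT, with 4, 3 and 2 of them at 10 CPM or more. The 6 megakaryocyte and platelet markers were also highest in KO, at 2350 CPM in KO, 1163 CPM in labelled Het and 1593 CPM in labelled WT, with 2, 1 and 1 of them at 10 CPM or more. Nearly all of that sum was Pf4, at 2267 CPM in KO, 1158 CPM in labelled Het and 1572 CPM in labelled WT. Pf4 was itself among the 10 leading genes of the KO macrophage gate. Ppbp, another of these markers, was at 81.2 CPM in KO, 3.31 CPM in labelled Het and 7.55 CPM in labelled WT. Depth per cell was higher in KO as given above. Thinned to 3000 UMIs per cell, the macrophages had Gpnmb at 621 CPM in KO, 59.3 CPM in labelled Het and 6.06 CPM in labelled WT. Mmp12 was then at 35.6 CPM in KO and 0 in both other libraries, and the same members passed the 2-fold rule. The part of depth beyond this thinning, and of RNA from other cells, in the levels of the members was not tested. For every 1 UMI of C1qa there were 5.07 Apoe UMIs in KO, 2.95 in labelled Het and 3.52 in labelled WT.

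**Figure D3:**
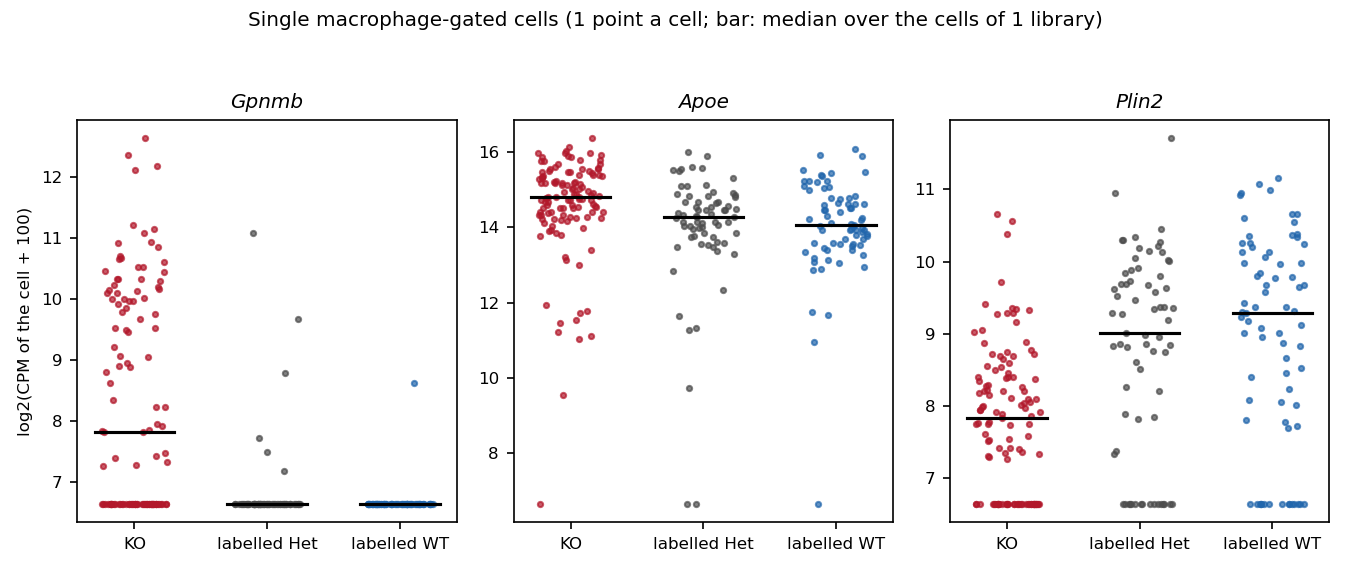
Gpnmb, Apoe and Plin2 in single macrophage-gated cells, as log2 of the cell's CPM with 100 added, for 117 KO, 69 labelled Het and 73 labelled WT cells. Each point is a cell and the bar is the median over the cells of 1 library. Gpnmb spreads over many KO cells, and the median Plin2 level is 128 CPM in KO, 414 CPM in labelled Het and 525 CPM in labelled WT.

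Within the KO library, macrophages with and without a Gpnmb UMI at 3000 UMIs per cell were set side by side as a description of 1 library. In the 48 cells with Gpnmb, Apoe stood at 37021 CPM (36034 to 38028), and in the 55 cells without it at 28552 CPM (27742 to 29379). Lpl was at 6.94 CPM with Gpnmb (1 UMI) and 72.7 CPM without it (12 UMIs), and Lgals3 at 1153 CPM with and 1545 CPM without. Plin2 was alike, at 250 CPM with Gpnmb and 236 CPM without it. Fabp5 was at 312.5 CPM with Gpnmb and 218 CPM without it, and Mmp12 at 62.5 CPM with (9 UMIs) and 12.1 CPM without (2 UMIs). Both were higher with Gpnmb, but their intervals overlapped. Trem2 and Cd9 had at most 5 UMIs in each set, and Spp1 had 0. Both sets of cells had the Kupffer cell lectin Clec4f at near equal levels, 2986 CPM with Gpnmb and 3055 CPM without, whereas the Kupffer receptors Timd4 (125 CPM with, 358 CPM without) and Marco (1493 CPM with, 2412 CPM without) were lower in the cells with Gpnmb. A further Kupffer receptor, Vsig4, was alike, at 382 CPM with Gpnmb and 394 CPM without. The leptin receptor Lepr was at 2743 CPM with Gpnmb and 994 CPM without, and the neutrophil gene S100a8 at 1313 CPM with and 2909 CPM without. The median depth before thinning was 15171 UMIs in cells with Gpnmb and 12650 in cells without, and the part of depth in this split was not tested. The number of members seen per thinned cell had a median of 3 in KO, 4 in labelled Het and 3 in labelled WT.

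Monocyte-gated cells numbered 1071 in KO (13.5% of cells), 627 in labelled Het (8.02%) and 623 in labelled WT (6.68%), and 426, 388 and 478 of them lay within 2-fold of the threshold. They were set by 8 probed markers, and Fn1, Ccr2, Ms4a6c and Vcan were among the 10 leading genes in each library, in KO beside the acute-phase gene Saa3. In the KO gate 42.9% of the cells also passed the neutrophil threshold, against 13.2% in labelled Het and 12.8% in labelled WT, and the summed neutrophil markers were at 45796 CPM in KO, 27845 CPM in labelled Het and 25918 CPM in labelled WT. In a clustering of all cells, 71.1% of the KO monocytes lay in cluster 10, while 34.6% and 36.0% of the labelled Het and 33.4% and 28.9% of the labelled WT monocytes lay in clusters 17 and 18. Cluster 12 was shared, with 25.2% of the KO, 23.8% of the labelled Het and 32.9% of the labelled WT monocytes. The members' levels in the whole gate therefore compare cells of different clusters, and this cannot be told apart from the difference in genotype.

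Of the 9 members that passed the filter in monocytes, 0 were at least 2-fold higher in KO than in both other libraries, where 1.29% of 8517 genes were, and 2 (Trem2 and Cd9) were at least 2-fold lower, where 3.53% were. The median log2 ratio of the 9 was -0.69 over labelled Het and -0.21 over labelled WT, beside -0.02 and -0.05 for all 8517 genes. Gpnmb stood at 61.6 CPM (58.8 to 64.6) in KO, 39.3 CPM (36.1 to 42.8) in labelled Het and 23.2 CPM (20.2 to 26.5) in labelled WT. The 3 libraries did not overlap in their intervals, and KO was 1.57 times labelled Het (1.42 to 1.73) and 2.66 times labelled WT (2.30 to 3.08), while labelled Het was itself 1.70 times labelled WT. After thinning it was seen in 16.6% of KO, 8.82% of labelled Het and 4.23% of labelled WT monocytes. In the shared cluster 12 alone the order was the same and the levels closer, at 38.0 CPM in KO, 28.1 CPM in labelled Het and 19.6 CPM in labelled WT.

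Apoe was lower in KO monocytes, with 2188 CPM (2171 to 2205) in KO, 2976 CPM (2948 to 3005) in labelled Het and 3500 CPM (3462 to 3539) in labelled WT. The ratios were 0.735 over labelled Het (0.726 to 0.744) and 0.625 over labelled WT (0.617 to 0.634), opposite in direction to those in macrophages. The gap to labelled Het nearly closed when each cell had the same weight. With cells thinned to 3000 UMIs, Apoe was at 3500 CPM in KO, 3577 CPM in labelled Het and 4435 CPM in labelled WT. The mean of each cell's CPM was 3482 in KO, 3559 in labelled Het and 4391 in labelled WT. In cluster 12 Apoe was at 1118 CPM in KO, 1985 CPM in labelled Het and 2510 CPM in labelled WT, and without the cells that also passed the neutrophil threshold at 2544 CPM in KO, 3123 CPM in labelled Het and 3637 CPM in labelled WT. Trem2 had 12.1 CPM in KO, 25.6 CPM in labelled Het and 42.1 CPM in labelled WT, or 0.473 times labelled Het (0.407 to 0.550) and 0.287 times labelled WT (0.248 to 0.333). Its order over the libraries ran opposite to that of Gpnmb. In cluster 12 Trem2 was at 10.1 CPM in KO, 13.8 CPM in labelled Het and 32.9 CPM in labelled WT, and it was no longer 2-fold lower than both.

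Cd9 and Plin2, both lower in KO macrophages, were also lower in KO monocytes. Cd9 had 23.5 CPM in KO, 72.9 CPM in labelled Het and 75.3 CPM in labelled WT, at 0.322 (0.292 to 0.355) and 0.312 times (0.280 to 0.348) the other libraries. Plin2 had 195 CPM in KO, 455 CPM in labelled Het and 352 CPM in labelled WT, at 0.429 times labelled Het (0.414 to 0.445) and 0.554 times labelled WT (0.531 to 0.579). Cluster 12 kept both directions, with Cd9 at 20.9 CPM in KO, 43.8 CPM in labelled Het and 49.0 CPM in labelled WT, and Plin2 at 140 CPM in KO, 252 CPM in labelled Het and 239 CPM in labelled WT.

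Lgals3 was higher in KO monocytes as it was in KO macrophages, at 3737 CPM in KO, 3197 CPM in labelled Het and 2853 CPM in labelled WT, with ratios of 1.17 (1.16 to 1.18) and 1.31 (1.29 to 1.33). Mmp12 was near 0 in every monocyte gate, with 0.909, 0.931 and 0.766 CPM in KO, labelled Het and labelled WT, so the KO excess of the macrophage gate was not detectable there. The remaining members were highest in labelled Het. Fabp5 had 132 CPM in KO, 224 CPM in labelled Het and 152 CPM in labelled WT, Spp1 had 17.4 CPM in KO, 27.3 CPM in labelled Het and 20.0 CPM in labelled WT, and Lpl had 14.6 CPM in KO, 23.5 CPM in labelled Het and 15.3 CPM in labelled WT.

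**Figure D4:**
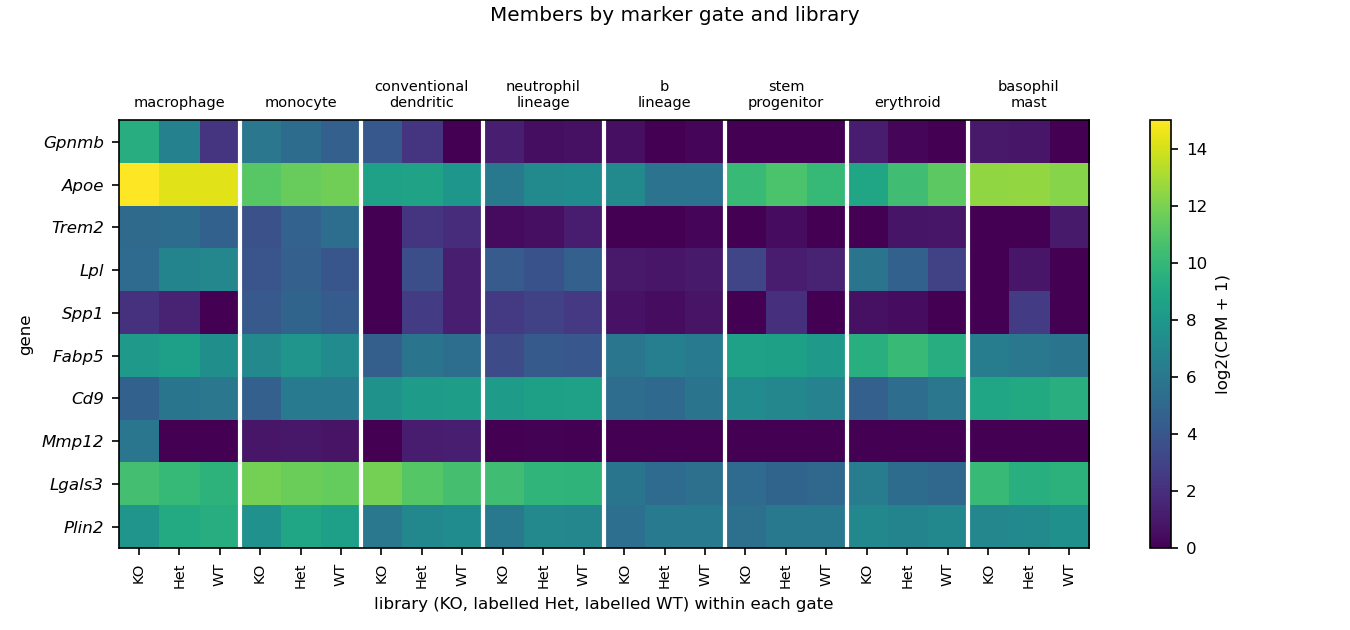
Level of the 10 members (rows) as log2 of CPM with 1 added in 8 marker gates with at least 20 cells in every library, each with the KO library, the library labelled Het and the library labelled WT from left to right. Gpnmb, Trem2 and Mmp12 reach 10 CPM only in macrophage, monocyte or, for Gpnmb in KO, dendritic columns, while Apoe, Lgals3, Plin2, Fabp5 and Cd9 are measured in most gates.

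Beyond macrophages and monocytes, 6 more gates held at least 20 cells in every library. Apoe differed in direction between them. In erythroid cells it was at 465 CPM in KO, 1379 CPM in labelled Het and 2435 CPM in labelled WT, and in the neutrophil lineage at 65.7 CPM in KO, 145 CPM in labelled Het and 156 CPM in labelled WT. In the B lineage the order was turned, with 137 CPM in KO, 52.5 CPM in labelled Het and 52.0 CPM in labelled WT, and with 13.1%, 5.82% and 7.25% of the thinned cells showing it in KO, labelled Het and labelled WT. The hepatocyte markers Alb (30.2, 14.1 and 12.1 CPM in that order) and Apoa1 (8.28, 0.864 and 0.549 CPM) were also highest in the KO B lineage. The part of RNA from other cells in its Apoe level was not tested. Basophil and mast cells had high Apoe in each library, at 5949 CPM in KO, 6247 CPM in labelled Het and 4958 CPM in labelled WT, so KO lay between the others.

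Lgals3 was at 1355 CPM in the KO neutrophil lineage, 891 CPM in labelled Het and 869 CPM in labelled WT, and at 3818, 2088 and 1519 CPM in KO, labelled Het and labelled WT conventional dendritic cells. In erythroid cells Lgals3 was at 81.8 CPM in KO, 38.5 CPM in labelled Het and 32.9 CPM in labelled WT. Lgals3 was thus higher in KO than in both other libraries in each of these gates. Lpl in erythroid cells had 53.4 CPM in KO, 24.2 CPM in labelled Het and 6.39 CPM in labelled WT, the reverse of its order in macrophages. Plin2 was lower in KO in the neutrophil lineage, at 66.8 CPM in KO, 132 CPM in labelled Het and 121 CPM in labelled WT, and in the B lineage, at 44.4 CPM in KO, 75.7 CPM in labelled Het and 75.9 CPM in labelled WT. Erythroid Plin2 did not follow, at 127 CPM in KO, 107 CPM in labelled Het and 129 CPM in labelled WT.

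By the 2-fold rule, 2 of 6 tested members were higher in KO erythroid cells (Lpl and Lgals3), where 1.66% of all genes were, and 1 (Apoe) was lower, where 2.56% were. In the B lineage 1 of 5 was higher (Apoe), beside 2.37% of genes, and 0 were lower, beside 4.72%. In the neutrophil lineage 1 of 6 was lower (Apoe), beside 2.64%, and 0 were higher, beside 0.522%. In conventional dendritic cells 1 of 5 was lower (Plin2), beside 6.58%, and 0 were higher, beside 4.53%. No member passed in either direction in stem and progenitor cells, beside 3.24% higher and 3.81% lower, or in basophil and mast cells, beside 2.26% higher and 2.92% lower. Nothing about the members as a set is read from these counts of 1 or 2 genes.

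Where the UMIs of a member lay depended on the gene. The macrophage gate held 29.6% of all Gpnmb UMIs in KO, 6.96% in labelled Het and 0.772% in labelled WT, and the monocyte gate held 53.4%, 67.0% and 81.9% of them. For Apoe the macrophage gate held 36.9% in KO, 13.2% in labelled Het and 16.4% in labelled WT. Cd9 was a neutrophil signal, with 40184 of its 42301 UMIs in the neutrophil lineage in KO, 34813 of 38998 in labelled Het and 24486 of 27325 in labelled WT. The monocyte gate held 76.7% of the Trem2 UMIs in KO, 76.9% in labelled Het and 76.7% in labelled WT. Apoe per C1qa UMI differed between gates, at 116, 156 and 120 in KO, labelled Het and labelled WT monocytes against 5.07, 2.95 and 3.52 in macrophages.

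Other genes of the programme were taken from a list of 24, of which 16 passed the filter in macrophages. Of these, 0 were at least 2-fold higher in KO than in both other libraries and 2 at least 2-fold lower, with median log2 ratios of -0.22 and -0.24 over labelled Het and labelled WT. Ctsl, the lysosomal protease cathepsin L, had 1337 CPM in KO, 690 CPM in labelled Het and 298 CPM in labelled WT, and Cd63, a lysosomal tetraspanin, had 356 CPM in KO, 250 CPM in labelled Het and 209 CPM in labelled WT. Those that were lower were Axl, a receptor for dying cells, at 750 CPM in KO, 2000 CPM in labelled Het and 2189 CPM in labelled WT, and the growth factor Igf1, at 83.2 CPM in KO, 248 CPM in labelled Het and 300.1 CPM in labelled WT. The 8 partners of Trem2 signalling gave 0 genes in either direction by the 2-fold rule, with 4 above and 3 below both other libraries and medians of 0.16 and -0.08. Among those above, the phosphatase Inpp5d was at 587 CPM in KO, 445 CPM in labelled Het and 355 CPM in labelled WT, the signalling adaptor Card9 at 76.5 CPM in KO, 52.9 CPM in labelled Het and 35.9 CPM in labelled WT, and the adaptor Hcst at 28.9 CPM in KO, 24.8 CPM in labelled Het and 17.0 CPM in labelled WT. Among those below, the adaptor Tyrobp was at 2297 CPM in KO, 2675 CPM in labelled Het and 3442 CPM in labelled WT, and the kinase Syk at 388 CPM in KO, 604 CPM in labelled Het and 868 CPM in labelled WT.

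Of 11 genes of lipid droplets and lipolysis tested, 7 lay above both other libraries in KO, where 3545 of all 8551 genes did, and 1 of them was at least 2-fold higher. A single gene of this list lay below both, at least 2-fold, and the medians were 0.43 and 0.44. Pnpla2, the lipase that starts triglyceride breakdown, had 736 CPM in KO, 291 CPM in labelled Het and 325 CPM in labelled WT. Hilpda, a protein that inhibits this lipase, had 292 CPM in KO, 685 CPM in labelled Het and 761 CPM in labelled WT. Plin2 itself thus lay low in KO together with Hilpda and opposite to Pnpla2.

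Uptake and efflux genes gave 1 of 13 that was higher and 0 lower by the 2-fold rule, with medians of -0.19 and -0.45. Apoc2, the cofactor of lipoprotein lipase, had 91.9 CPM in KO, 31.4 CPM in labelled Het and 43.4 CPM in labelled WT, and the lysosomal cholesterol exporter Npc1 had 336 CPM in KO, 169 CPM in labelled Het and 192 CPM in labelled WT. Scarb1, a lipoprotein receptor, had 483 CPM in KO, 925 CPM in labelled Het and 891 CPM in labelled WT. Of 13 transcription factors 0 passed in either direction, with medians of -0.29 and -0.27. Mitf, a regulator of Gpnmb, was at 25.5 CPM in KO, 19.9 CPM in labelled Het and 17.0 CPM in labelled WT from 38, 12 and 9 UMIs, and the sterol receptor gene Nr1h3 at 153 CPM in KO, 278 CPM in labelled Het and 206 CPM in labelled WT.

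Of 11 Kupffer cell genes, 8 were below both other libraries in KO, where 2766 of all 8551 genes were, 3 of them at least 2-fold, and 0 were at least 2-fold higher. Their medians were -0.78 and -0.47. Clec4f, Timd4, Vsig4, Cd5l and Marco of this list are also markers that set the macrophage gate, so their levels depend on how the cells were chosen. Cd5l and Timd4 are among the 3, and the counts are therefore not independent of the gate. Cd5l, a secreted scavenger protein, had 245 CPM in KO, 4974 CPM in labelled Het and 3893 CPM in labelled WT. Timd4, the receptor for phosphatidylserine, had 234 CPM in KO, 677 CPM in labelled Het and 691 CPM in labelled WT. The relatives of the members by gene family gave 1 of 20 higher and 1 lower, with medians of 0.05 and 0.29. Mmp8, the neutrophil collagenase and also one of the neutrophil markers, had 283 CPM in KO, 103 CPM in labelled Het and 28.3 CPM in labelled WT, and Treml4, a relative of Trem2, had 42.9 CPM in KO, 256 CPM in labelled Het and 291 CPM in labelled WT.

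The genes whose pattern was most like that of Gpnmb were found by Pearson's r of log2 of CPM with 1 added over 24 points, 8 gates in 3 libraries, which share depth and libraries. They were Ms4a4a (r = 0.92), Lamp1 (0.89), Clec4a1 (0.89), Clec4a3 (0.88) and Ctns (0.87), of which the Clec4a genes have close copies whose probes may share reads. Ms4a4a had 933 CPM in KO macrophages, 184 CPM in labelled Het and 130 CPM in labelled WT, and in monocytes 137 CPM in KO, 61.4 CPM in labelled Het and 18.8 CPM in labelled WT, the same order as Gpnmb in both gates. Clec4a3 kept that order in both gates too, while Clec4a1 and Ctns kept it in macrophages only and Lamp1 in monocytes only. For Apoe the nearest were Apoc1 (r = 0.93), Vopp1 (0.91), Psen2 (0.90), Ecm1 (0.90) and Lpcat3 (0.90). Apoc1, its neighbour in the apolipoprotein family, did not share the difference in macrophages, at 594 CPM in KO, 667 CPM in labelled Het and 878 CPM in labelled WT. Lpcat3 was likewise lower in KO, at 120, 170 and 174 CPM in that order. Psen2 (411, 268 and 151 CPM) and Ecm1 (307, 129 and 37.7 CPM) were higher in KO, and Vopp1 slightly so (134, 124 and 100 CPM).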

How the data were processed

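The deposited values are raw UMI counts per gene and barcode, not normalised, which the authors made with Cell Ranger 7.0.0 against mm10, per the submitters' processing notes; no source used here gives other settings. Doublets were called per library with Scrublet (scanpy 1.11.5), which marked 298 barcodes in KO, 186 in labelled Het and 273 in labelled WT, and were left out. The marker lists held no member, and the thresholds (64 marker UMIs per 10000 for macrophages, 32 for monocytes) were set after seeing the distributions. Of the kept cells, 147 in KO, 204 in labelled Het and 173 in labelled WT fell in no gate. UMIs were summed per library and gate and scaled to CPM, with exact Poisson intervals, exact conditional binomial intervals for ratios and Clopper-Pearson intervals for shares. Log2 ratios had 0.5 counts added. Gates needed 20 cells in every library and genes a mean of 10 CPM. Shares of cells were taken after thinning each cell to 3000 UMIs, which left out 14 KO, 24 labelled Het and 18 labelled WT macrophages.

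The members and lists were chosen with earlier results of these data known. All members are named in the macrophage and monocyte gates. In other lists up to 3 genes with the largest and 3 with the smallest ratio of the same sign against both other libraries could be named. Scaling factors of edgeR 4.0.16 and DESeq2 1.42.0 served as alternatives only, as did Leiden clusters made without the members. The 2-fold rule and the ratio intervals were tested on simulated gate sums with Poisson error only. UMIs held by single cells were no part of those sums, and the other steps were not tested in this way. Probes differ between genes, so levels were not compared between genes. Gene positions came from the GRCm38 annotation and promoters from RefSeq.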

Additional observations from a re-analysis of the deposited data

Results flagged for a closer look

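Apoe went in opposite directions in the 2 gates. In macrophage-gated cells the KO library stood at 1.60 times the library labelled Het and 1.61 times the library labelled WT, and in monocyte-gated cells at 0.735 and 0.625 times those libraries. The macrophage excess was smaller with cells thinned to 3000 UMIs. Apoe there was at 32498 CPM in KO, 24030 CPM in labelled Het and 21709 CPM in labelled WT. The lower monocyte level against labelled Het depended on the weight of deep cells. With monocytes thinned to 3000 UMIs it was 3500 CPM in KO, 3577 CPM in labelled Het and 4435 CPM in labelled WT. With 1 library per genotype the difference between the gates was not tested.

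Cells that fell in no gate also carried the members. In the 147 ungated KO cells Gpnmb was at 158 CPM, beside 31.3 CPM in labelled Het and 0.762 CPM in labelled WT. Mmp12 was at 70.1 CPM in ungated KO cells, with 0 UMIs in the ungated cells of both other libraries, and these cells held 57.3% of all KO Mmp12 UMIs. Lgals3 was at 1202 CPM in ungated KO cells, 393 CPM in labelled Het and 415 CPM in labelled WT. The KO values of Gpnmb and Mmp12 rest largely on 1 cell of 29711 UMIs, which had 240 Gpnmb, 157 Mmp12, 1095 Apoe and 9 C1qa UMIs and 21.5 macrophage marker UMIs per 10000, under the threshold of 64. In labelled Het 1 ungated cell of 14425 UMIs held 145 Gpnmb UMIs and 0 C1qa UMIs.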

How the results depend on the processing

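In macrophage-gated cells the count of members at least 2-fold higher in KO was 2 (Gpnmb and Mmp12) under the other alternatives run but 1 with the stricter marker threshold, where Mmp12 was lost, and 3 with a fold threshold of 1.5, where Apoe was added. The count of lower members was 3, or 2 with the mean of each cell's CPM. In monocytes the count of higher members was 0, but 1 (Gpnmb) with a fold threshold of 1.5, against the library labelled WT alone and with the mean of each cell's CPM. The count of lower monocyte members was 2, but 1 (Cd9) with TMM scaling, with Leiden clusters and in cluster 12 alone, a setting chosen after seeing the data. It was 3, with Plin2 added, with the stricter marker threshold, with thinned cells, with a fold threshold of 1.5, against labelled Het alone and with the mean of each cell's CPM. Without cells past the neutrophil threshold the 2 were Lpl and Cd9, so Trem2 was lost there too. The share of KO macrophages with a Gpnmb UMI, 46.6% at 3000 UMIs, was 36.7% at 1500 and 57.6% at 6000 UMIs per cell. The log2 ratio of Fabp5 over labelled Het in macrophages turned to 0.19 with Leiden clusters and to 0.18 without the richest cell. In monocytes the log2 ratio of Fabp5 over labelled WT turned to 0.059 without cells past the neutrophil threshold and to 0.043 in cluster 12, where that of Lpl over labelled Het turned to 0.047. The causes were not tested. Of 556 ratios of members over all alternatives, 431 stayed within counting error, 120 moved beyond it and 5 turned in direction. A turn was counted only for ratios whose interval before the change excluded 1. Other ratios changed sign without being counted. In macrophages the log2 ratio of Trem2 over labelled WT, for one, went from 0.47 to -0.28 with cells thinned to 3000 UMIs. The 431 include ratios that could not change. Dropping the filter, lowering the fold threshold or using 1 other library alone left the ratios themselves as they were. Leaving out the richest cell, the neutrophil-marked cells or all but cluster 12 was chosen after seeing the data. In Leiden clusters Gpnmb was at 820 CPM in KO, 5.94 CPM in labelled Het and 4.72 CPM in labelled WT, and Mmp12 at 158 CPM in KO, 1.19 CPM in labelled Het and 0 in labelled WT. These KO levels include the ungated cell with 240 Gpnmb and 157 Mmp12 UMIs, which held most of the Mmp12 value. No paired analysis was possible because each genotype has 1 library and the shared number pairs nothing. The macrophage gates hold 69 to 117 cells, which limits Trem2, Cd9, Spp1 and Mmp12 most, and no library was repeated.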
